A study of Drosophila melanogaster with 30 samples.

Results

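The numbered ChIP-predicted enhancer elements were 18 of the 591 reporter inserts listed in either round of a screen for silencers in Drosophila embryos. The rule that chose them used their names and no measured value, although it was set with earlier results of these data known. Of the 18, 12 were named CRM_ followed by a number and 6 began with ChIPCRM. Round 1 listed 6 of them among 576 inserts, and round 2 listed 14 among 188. ChIPCRM2078 and ChIPCRM5792 were in both rounds. Each insert carried a barcode of 12 bases, and the barcodes of these elements differed from the nearest other barcode of their round at 3 to 5 positions. The names refer to no gene, and their genomic positions and sequences were not used here.

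Chromatin immunoprecipitation (ChIP) maps where transcription factors sit on DNA, and clusters of bound sites are used to predict cis-regulatory modules (CRMs), the stretches of DNA that steer transcription of a gene. In the Drosophila mesoderm, which forms muscle, heart and fat body, such modules are bound by factors including Twist, Tinman and Mef2. A silencer is a module that lowers transcription from an enhancer or promoter near it, and one module may act as an enhancer in some cells and as a silencer in others. The labels do not say which bound factors the numbered elements were predicted from.

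The reporter placed each element beside a strong ubiquitous enhancer driving GFP. All libraries came from the same kind of cross, in which males with random picks of the reporter pool were mated to twi:CD2 females, whose transgene is named for the mesodermal gene twist and marks cells with the surface protein CD2. Embryos were collected for 2.25 hours and aged for 11 hours at 18 degrees. Round 1 compared low-GFP CD2+ cells (labelled GFP-CD2+) with CD2+ and CD2- cells, and round 2 compared low-GFP CD2+ cells (labelled CD2+GFPred) with CD2+ cells. An insert that silences the reporter in mesoderm is meant to be recovered more often from the low-GFP sort. Every group held 6 libraries with 6 dates in their titles. Days 1 to 3 were in experiment 1 and days 4 to 6 in experiment 2 of the round. The dates are called collection days here, although the titles do not say which step was dated. Only insert DNA was counted, so the sorted cells could not be checked against expression markers.

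Depth ran from 3399506 to 5934098 read 1 counts in the 18 libraries of round 1 and from 2928510 to 5488936 in the 12 libraries of round 2. Abundance is given in CPM, the count of an insert scaled to a common library size. A count of 0 allowed up to 0.399 to 1.71 CPM in a library of round 1 and 0.471 to 1.13 CPM in one of round 2, for counting error alone. An element was called at an edgeR adjusted p under 0.05. Libraries of a group differ by collection day, so p-values rest on the spread between libraries of different days within an experiment. The main fit had no term for day and did not use the pairing of sorts from the same day.

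Of the 6 elements listed in round 1, only 4 were recovered. ChIPCRM2078 and ChIPCRM5792 had 0 counts in all 18 libraries and could not be compared. In CD2+ and CD2- libraries the other 4 spanned a wide range of abundance. ChIPCRM5432 was among the most abundant of all inserts, placed between the 1st and the 6th in every control library. ChIPCRM5405 was near or at 0 in the second experiment. Together the 4 took a median of 3.49% of CD2+ counts (2.45 to 5.22%), 3.43% of CD2- counts (3.13 to 4.84%) and 1.31% of low-GFP counts (0.481 to 1.91%). Most of the control share was ChIPCRM5432, with medians of 2.79% of CD2+, 2.97% of CD2- and 0.475% of low-GFP counts. ChIPCRM3152 went the other way, with medians of 0.127%, 0.0416% and 0.913%.

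ChIPCRM5432 fell in low-GFP cells in each of the 3 comparisons. It stood at 18710 to 37586 CPM in CD2+ libraries (median 23987), 19192 to 31229 CPM in CD2- libraries (median 24856) and 4000 to 9907 CPM in low-GFP libraries (median 5514). Every low-GFP library was below every control library, and the insert dropped to between the 39th and the 75th place in the low-GFP libraries. Its log2 fold change against both controls was -2.07 (SE 0.28 and edgeR adjusted p = 1.96e-05), a 4.19-fold lower abundance. Against CD2+ alone the log2 fold change was -2.07 (SE 0.30 and edgeR adjusted p = 0.000146), and against CD2- alone -2.06 (SE 0.30 and edgeR adjusted p = 0.000202). The daily log2 differences from both controls were close together, from -2.36 to -1.79. Within each experiment the value against both controls was -2.31 and -2.01 (edgeR adjusted p = 0.00703 and 0.0283). Within experiment 2 the call was lost against CD2+ alone (edgeR adjusted p = 0.0619) and against CD2- alone (0.0713).

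ChIPCRM2497 also fell in each of the 3 comparisons. Its levels were 1588 to 6546 CPM in CD2+ libraries (median 3043), 653 to 4668 CPM in CD2- libraries (median 3304) and 223 to 912 CPM in low-GFP libraries (median 624). The ranges of low-GFP and CD2+ libraries did not overlap, while the lowest CD2- library, of day 3, lay inside the low-GFP range. That overlap depended on the scaling: by share of counts the lowest CD2- library held 0.0828% and the highest low-GFP library 0.0786%. Day by day the low-GFP library was lower on 6 of 6 days, by daily log2 differences of -2.91 to -2.19 from both controls. The log2 fold change was -2.60 against both controls (SE 0.55 and edgeR adjusted p = 0.00155), -2.75 against CD2+ (SE 0.60 and edgeR adjusted p = 0.00236) and -2.44 against CD2- (SE 0.59 and edgeR adjusted p = 0.00599). With 3 days alone the value against both controls was -3.14 in experiment 1 (edgeR adjusted p = 0.0749) and -2.32 in experiment 2 (0.0531), so neither experiment alone carried the call.

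ChIPCRM3152 rose in low-GFP cells against both controls. Its low-GFP libraries held 696 to 21245 CPM with a median of 12627, CD2+ libraries 0.676 to 2728 CPM with a median of 1159, and CD2- libraries 1.26 to 2542 CPM with a median of 318. The highest low-GFP value, of day 4, depended on the scaling. By share of counts that library held 0.765%, below the 1.09, 1.06 and 1.07% of days 1, 2 and 3. The low-GFP range overlapped both control ranges, yet the low-GFP library was above the controls of the same day on 6 of 6 days, by daily log2 differences of 1.96 to 8.93. Controls at a few counts set the upper end of that span: on day 5 the element had 3 counts in CD2+ and 8 in CD2- cells, against 2102 in low-GFP cells. On days 1 and 6 the CD2- libraries held 33 and 5 counts and the CD2+ libraries 11118 and 4691. The log2 differences of those days were 6.77 and 5.88 from both controls, but 2.61 and 1.15 from CD2+ alone. The log2 fold change was 3.66 (SE 1.19 and edgeR adjusted p = 0.0281), a 12.6-fold higher abundance. Against CD2+ alone it was 3.16 (SE 1.52 and edgeR adjusted p = 0.170) and against CD2- alone 4.16 (SE 1.59 and edgeR adjusted p = 0.0736), and neither passed. With collection day as a block the comparison with CD2- passed (5.52, edgeR adjusted p = 0.0232). DESeq2 called the element against CD2+ (3.41, adjusted p = 0.0228) and against CD2- (4.45, adjusted p = 0.00192). The call against both controls was lost without day 1, 2 or 4 (edgeR adjusted p = 0.0613, 0.0839 and 0.0811), within experiment 1 (2.97, 0.105) and experiment 2 (4.02, 0.230), and with total counts (2.64, 0.0924).

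ChIPCRM5405 was recovered on some days only and showed no call. In experiment 1 it stood at 1199, 1818 and 1128 CPM in the low-GFP libraries of days 1 to 3, at 3273 and 304 CPM and 9 counts in CD2+ libraries and at 7590, 506 and 1449 CPM in CD2- libraries. In experiment 2 no library held more than 2 counts of it. Its log2 fold changes were 0.21 against both controls, 0.69 against CD2+ and -0.28 against CD2- cells (edgeR adjusted p = 0.899, 0.727 and 0.962).

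Against both controls, 1 of the 4 tested elements was called higher and 2 lower, beside 26.0% of the 358 inserts tested in round 1 (15.9% higher and 10.1% lower). Of all inserts, 57 were higher and 36 lower, a split that became 47 and 56 with total counts and 63 and 23 with DESeq2 size factors. Against CD2+ alone 0 were higher and 2 lower, where 20.7% of all inserts were called (12.3% higher and 8.38% lower). Against CD2- alone the count was also 0 and 2, beside 21.2% (13.4% and 7.82%). The median log2 fold change of the 4 against both controls was -0.93, and that of all tested inserts -0.61. All 3 comparisons share the low-GFP libraries. The 8 tested control inserts of E. coli DNA had a median of -2.04 (-6.47 to 2.43), with 1 called higher and 0 lower. In the main fit ChIPCRM5432, at -2.07, lay near that E. coli median. With libraries scaled to the E. coli inserts, ChIPCRM5432 stood at -1.94 and ChIPCRM2497 at -2.26 (edgeR adjusted p = 0.00454 and 0.0101). That scaling used the summed counts of the E. coli inserts, so the abundant ones weighed most and it did not centre their median.

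The CD2+ and CD2- sorts were compared to see whether recovery of the elements differed between sorts with no selection on GFP. Because insert DNA was counted and not its activity, this comparison cannot show whether an element acts differently in mesoderm. None of the 4 was called by edgeR or by DESeq2, and 0% of the 358 inserts were by edgeR. An unadjusted p under 0.05 was reached by 6 inserts, and DESeq2 called 2 higher and 1 lower. ChIPCRM5432 differed by a log2 fold change of 0.01 (SE 0.29) and ChIPCRM2497 by 0.32 (SE 0.56). ChIPCRM3152 stood at 1.00 (SE 1.41) and ChIPCRM5405 at -0.96 (SE 1.27). Their adjusted p was 0.999.

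Round 2 held the 12 CRM_ elements and the 2 ChIPCRM elements that were missing from round 1 libraries. Of the 14, 12 had counts in every library. CRM_4821 was the exception among CRM_ elements, with 1 count in each of 3 libraries and none in the other 9, and was not tested. Median CD2+ levels of the elements ranged up to 19370 CPM, that of CRM_2048. Together the 14 made up a median of 13.3% of CD2+ counts (11.8 to 15.4%) and 11.1% of low-GFP counts (8.65 to 11.7%).

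CRM_1807 rose in low-GFP cells of round 2. Its CD2+ libraries held 8312 to 22370 CPM (median 13730) and its low-GFP libraries 28183 to 70757 CPM (median 43313). The ranges did not overlap, and the element moved from between the 10th and the 43rd place in CD2+ libraries to between the 4th and the 11th in low-GFP libraries. The log2 fold change was 1.65 (SE 0.28 and edgeR adjusted p = 0.00150), a 3.13-fold higher abundance, with daily log2 differences of 1.04 to 2.36. The values of experiments 1 and 2 were 1.75 (edgeR adjusted p = 0.0245) and 1.68 (0.0779). The call held without any single day.

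CRM_1734 had the highest fitted log2 fold change of the 155 inserts tested in round 2, 5.17 (SE 2.13), but did not pass (edgeR adjusted p = 0.153). It was nearly missing on days 4 and 5, with 2 and 4 counts in CD2+ and 7 and 5 counts in low-GFP libraries. On the other days it stood at 135, 1920, 1043 and 267 CPM in CD2+ libraries and at 21754, 24840, 5194 and 20787 CPM in low-GFP libraries of days 1, 2, 3 and 6. The daily log2 difference was above 0 on 6 of 6 days (0.67 to 7.33). With collection day as a block it passed (3.93, edgeR adjusted p = 0.0214), as it did without day 6 (3.28, edgeR adjusted p = 0.0431).

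CRM_1729 was the third element with a log2 fold change above 0. Its CD2+ libraries held 304 to 8825 CPM (median 6023) and its low-GFP libraries 5031 to 28792 CPM (median 11909), with overlapping ranges. It was higher in low-GFP cells on 5 of 6 days, and the log2 fold change of 1.25 (SE 0.63) did not pass (edgeR adjusted p = 0.202).

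ChIPCRM2078 had the lowest fitted log2 fold change of the 155 inserts. Its CD2+ libraries held 651 to 4462 CPM (median 1730), or 4149 to 21103 counts. The low-GFP libraries of days 1 to 5 held 1 to 5 counts each, and that of day 6 held 724 counts, or 228 CPM. Every low-GFP library was below every CD2+ library. The log2 fold change was -7.81 (SE 2.15 and edgeR adjusted p = 0.0293), while the log2 ratio of the mean CPM of the groups, 38.9 against 2247, was -5.85. The element passed the filter on low counts through its CD2+ libraries, since the low-GFP libraries of days 1 to 5 held too few counts. Its place among the tested inserts thus rests on the group in which it was high. The call was lost without day 1, 2, 3 or 5 (edgeR adjusted p = 0.0797 to 0.120) and with read 2 counts (0.0635), and without day 6 the value was -11.28 (edgeR adjusted p = 9.51e-05). Within experiment 1 it was -11.00 (edgeR adjusted p = 0.00180), and within experiment 2 -4.76 (0.469).

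CRM_1602 and CRM_2622 fell by a little over 1 on the log2 scale. CRM_1602 stood at 8463 to 15693 CPM in CD2+ libraries (median 11860) and at 2850 to 7833 CPM in low-GFP libraries (median 5239). CRM_2622 stood at 7642 to 13780 CPM in CD2+ libraries (median 10415) and at 3441 to 6816 CPM in low-GFP libraries (median 4661). For both elements the ranges did not overlap and the low-GFP library was lower on 6 of 6 days. In neither round was the share of all inserts with such separate ranges or such daily agreement counted. The log2 fold changes were -1.15 (SE 0.32 and edgeR adjusted p = 0.0318) and -1.12 (SE 0.30 and edgeR adjusted p = 0.0293). Without a single day the call of CRM_1602 was lost in each of 6 cases (edgeR adjusted p = 0.0663 to 0.107), and that of CRM_2622 in all but the omission of day 4 (0.0583 to 0.127). Both were lost with libraries scaled to the E. coli inserts, at -0.52 and -0.51 (edgeR adjusted p = 0.336 each), and within each experiment.

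The remaining 7 tested elements were below 0 and did not pass. CRM_1783 was lower in low-GFP cells on 5 of 6 days, with 7307 to 19291 CPM in CD2+ libraries (median 9475) and 2126 to 12117 CPM in low-GFP libraries (median 3693). Its log2 fold change was -1.32 (SE 0.49 and edgeR adjusted p = 0.121) and passed with collection day as a block (-1.53, edgeR adjusted p = 0.0411), with total counts (-1.75, 0.0311), with DESeq2 (-1.30, 0.0476) and without day 4 (-1.92, 0.00948). CRM_6190 fitted at -1.17 and CRM_3463 at -0.64 (edgeR adjusted p = 0.202 and 0.181), the latter past the threshold with total counts (-1.18, 0.0161). The values nearest 0 were those of CRM_2048 at -0.26, CRM_2837 at -0.33 and CRM_4799 at -0.35 (edgeR adjusted p = 0.742, 0.679 and 0.828). CRM_4799 had 42.5 CPM in the low-GFP library of day 4 and 1383 to 2731 CPM in the others. ChIPCRM5792 was present in experiment 1 only, at 3643 to 10359 CPM in CD2+ and 1259 to 5406 CPM in low-GFP libraries. No library of experiment 2 held more than 3 counts of it, and its log2 fold change was -0.63 (SE 0.87 and edgeR adjusted p = 0.678).

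Of the 13 elements tested in round 2, 1 was called higher and 3 lower, beside 14.2% of the 155 inserts tested (9.03% higher and 5.16% lower). One of the lower calls is ChIPCRM2078, which passed the filter on low counts through its CD2+ libraries. Of all inserts, 14 were higher and 8 lower, against 8 and 17 under total-count scaling. Scaling to the E. coli inserts gave 23 higher and 2 lower. The fitted value was above 0 for 3 elements and below 0 for 10, with a median of -0.63 against -0.20 for all tested inserts. With E. coli scaling 7 elements were above 0 and 6 below, with a median of 0.0087 against 0.40 for all inserts. Of the 12 E. coli inserts tested, 0 were higher and 4 lower, with a median of -0.68 (-2.47 to 0.84). The call of CRM_1807 was kept with libraries scaled to these inserts (2.25, edgeR adjusted p = 0.000179).

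No element could be followed from round 1 to round 2. The elements tested in round 1 were not listed in round 2, and those listed in both rounds had no count in round 1. When the experiments of a round were tested against each other in their response, edgeR called 0 of the 4 elements in round 1 and 0 of the 13 in round 2, and DESeq2 called 0 in both. These counts match a background near 0 and say nothing particular about the elements. Over all inserts edgeR called 0% against both controls, 0.279% against CD2+ in round 1 and 0% in round 2, and DESeq2 called 3.07%, 1.96% and 0%. ChIPCRM2078 had the lowest p of these elements, with a difference of 6.25 on the log2 scale (SE 2.64 and edgeR adjusted p = 0.9997). Its low-GFP libraries held 2, 5 and 4 counts in experiment 1 and 4, 1 and 724 in experiment 2, so day 6 alone stood apart.

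The authors' deposited tables compare low-GFP with control cells within each experiment. In round 1 they list 4 of the elements and give an adjusted p under 0.05 to 2 in experiment 1, ChIPCRM3152 at a log2 fold change of 3.38 and ChIPCRM2497 at -3.12, beside 23.2% of the inserts in that deposited table. For experiment 2 the deposited table gives 1, ChIPCRM3152 at 4.06, beside 18.8%. In round 2 the authors' deposited table of experiment 1 gives 3 of 13, CRM_1734 at 4.09, CRM_1807 at 1.68 and ChIPCRM2078 at -11.20, beside 12.4%. That of experiment 2 gives 3 of 12, CRM_1734 at 6.24, CRM_1729 at 1.94 and CRM_1807 at 1.70, beside 16.8% of the inserts in the authors' deposited table. CRM_1734 and CRM_1729 are thus called in deposited tables while the edgeR fit over both experiments did not call them. Within experiment 2, CRM_1734 held more than 7 counts on day 6 only, at 1699 counts in CD2+ and 66011 in low-GFP cells. CRM_1602 and CRM_2622, called lower by edgeR, have adjusted p-values of 0.291 to 0.811 in the authors' deposited tables. ChIPCRM5432 has adjusted p-values of 0.0842 and 0.253 in the authors' deposited tables of round 1, and ChIPCRM2497 has 0.326 in that of experiment 2.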

How the data were processed

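Per the labels' protocols, inserts were recovered by nested PCR from genomic DNA of sorted cells and sequenced. The authors deposited counts of read 1 and of read 2 per barcoded insert. Mapper and genome build were not given in the sources used here. The authors also deposited comparison tables with a log2 fold change and p-values per insert. The submitters' processing notes name DESeq, without a version or the step it was used for. Rounds and days were read from the dates in the titles.

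Read 1 counts were used, with empty cells as 0. All inserts of a round were fitted together in edgeR 4.0.16 (R 4.3.3). Low counts were removed with filterByExpr (minimum 10) and libraries were scaled by TMM. The quasi-likelihood test had terms for sorted population and experiment, and p-values were adjusted by Benjamini-Hochberg. The SE is the absolute log2 fold change over the square root of the F statistic, so it restates the test. Daily log2 differences used a prior count of 2. Fits were tested on simulated data. DESeq2 1.42.0 was an alternative.

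The members and settings were chosen with earlier results of these data known. The naming rule was every called element with its values and every other tested element with its fold change. Dates pair the libraries of a day: deviations of paired libraries correlated above 0.1 in 17 of 18 pairs of round 1 and 6 of 6 of round 2. No pair of libraries of a group agreed within sampling noise (lowest chi-square per degree of freedom 3110). The labels name no molecular identifiers, so floors cover counting error only.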

Additional observations from a re-analysis of the deposited data

Results flagged for a closer look

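In 6 of 38 groups of 6 libraries with counts above the floor, the CPM of 1 library lay far from the other 5. Chance flags about 1 in 20 such groups where the values are normally distributed. All flagged values were the highest of their group, and the chance rate for skewed CPM was not tested. The count of 6 is therefore no measure of excess. CRM_1783 had 12117 CPM in the low-GFP library of day 4 of round 2, against 4700 CPM in the next highest. CRM_2837 had 21404 CPM in the low-GFP library of day 1, against 11971 CPM. ChIPCRM2078 had 228 CPM in the low-GFP library of day 6, against 1.82 CPM. In round 1 ChIPCRM5405 reached 7590 CPM in the CD2- library of day 1, against 1449 CPM, and 3273 CPM in the CD2+ library of that day, against 304 CPM. ChIPCRM5432 had 37586 CPM in the CD2+ library of day 2, against 25762 CPM.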

How the results depend on the processing

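The scaling moved the median log2 fold change of all inserts, from -0.61 to -1.23 with total counts, -0.29 with DESeq2 size factors and -0.47 with E. coli scaling in round 1 (low-GFP against both controls), and from -0.20 to -0.71 with total counts and 0.40 with E. coli scaling in round 2. Calls over all inserts fell from 57 higher and 36 lower in round 1 to 34 and 14 within experiment 1 and 35 and 8 within experiment 2, and in round 2 from 14 and 8 to 7 and 1 and to 8 and 0. With the replicate block the calls over all inserts of round 2 were 20 and 11. Relative to both controls in round 1, 1 element was called higher, and 0 were with total counts, within experiment 1 or within experiment 2. The count of 2 lower became 1 within experiment 1 and 1 within experiment 2. Without single days the counts ran from 0 to 1 and stayed at 2. Against CD2+ alone, DESeq2 called 1 higher in place of 0, and the 2 lower calls became 1 within experiment 1 and 0 within experiment 2. Against CD2- alone, 1 was higher with collection day as a replicate block and 1 with DESeq2, and the lower count was 1 and 0 within experiments 1 and 2. In round 2 the count higher became 2 with the replicate block and 0 within experiment 2, and ran from 1 to 2 without single days. The count of 3 lower became 4 with the replicate block, 2 with read 2 counts, 5 with total counts, 1 with E. coli scaling, 1 within experiment 1 and 0 within experiment 2, and ran from 0 to 3 without single days. The replicate block changed no call beyond those given above. DESeq2 gave no adjusted p for CRM_1734 and ChIPCRM2078 in round 2. CRM_1734 had no p at all, while ChIPCRM2078 stood at -7.80 with an unadjusted p of 1.53e-09 (DESeq2 Wald test). The 3 elements called lower by DESeq2 therefore leave out ChIPCRM2078 and take in CRM_1783, so an equal count hid a changed set. In the fits within 3 days fewer libraries were used, and for the other changes the cause was not tested.

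Directions changed only for values that passed nowhere. ChIPCRM5405 against both controls turned to -0.50 without the experiment term, -0.43 with total counts, -0.039 with read 2 and -0.86 within experiment 1, and ran from -0.15 to 1.42 without single days. Against CD2+ it was -0.017 with read 2 and -0.11 within experiment 1, and against CD2- 0.59 with the replicate block, 0.013 with DESeq2 size factors, 0.52 with E. coli scaling and -0.76 to 0.80 without single days. For CD2+ against CD2-, ChIPCRM5432 turned to -0.011 with the replicate block, -0.0016 with DESeq2 size factors and DESeq2, -0.082 with total counts, -0.0035 with summed reads, -0.035 within experiment 1, -0.012 within experiment 2, and -0.077 to 0.044 without single days. In round 2, E. coli scaling turned CRM_2048 to 0.43, CRM_2837 to 0.34, CRM_4799 to 0.23 and ChIPCRM5792 to 0.0087. CRM_2837 was 0.27 within experiment 1, and CRM_4799 was 0.15 within experiment 2 and -0.66 to 0.020 without single days.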
